A study of Mus musculus with 6 samples.

Results

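The replication-dependent histone genes supply the proteins that package newly made DNA, and their transcripts were compared here in mouse mammary tumour cells that overexpressed Six2 and in cells that carried only the vector. They were taken as every array row whose platform annotation gave a single symbol starting with Hist1h, Hist2h, Hist3h or Hist4h. This gave 40 genes on 67 rows, out of 20893 genes and 241576 rows in the table. Of the 40 genes, 30 belonged to Hist1, 7 to Hist2, 2 to Hist3 and 1 to Hist4. By protein, 5 encoded the linker histone H1, 11 H2A, 11 H2B, 5 H3 and 8 H4. A further 47 rows named several symbols, and these are given apart because near-identical histone sequences can bind the same probes. In all, 63 histone symbols occurred in the annotation, of which 23 stood only in such rows.

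The cells were the 4TO7 line, which derives from a mouse mammary tumour. Total RNA of 3 control arrays came from cells given the pcDNA vector alone, and that of 3 Six2 arrays from cells in which Six2, a homeobox transcription factor written SIX2 in the titles, was overexpressed. The labels do not say whether either group was a clone or a pool, and they do not say that replicates were separate cultures, so p-values measure a spread between arrays that may be technical. Array dates were not used here, and a batch that followed the grouping and the grouping itself cannot be told apart. Six2 itself was 3.69, 3.25 and 3.62 on the control arrays and 3.60, 3.94 and 4.03 on the Six2 arrays, on the log2 scale of RMA values used throughout. The groups overlapped, and its difference was 0.33 (SE 0.16, limma adjusted p = 0.215), while the labels do not describe the insert or say whether the array's probes would detect it. Of the 6 epithelial markers measured, 5 were lower in Six2 arrays, and their mean level was 7.90 to 7.97 on control and 6.42 to 6.53 on Six2 arrays. Krt8, a keratin of simple epithelia, was 12.33 on control and 11.77 on Six2 arrays, and Cdh1, which encodes E-cadherin, was 7.57 and 4.41. Of the markers of other cell types, 1 of 4 leukocyte genes was lower and none of 4 endothelial or 5 fibroblast genes passed (limma, adjusted p under 0.05), and none of the endothelial or fibroblast genes had an unadjusted p under 0.05. Mean levels of these lists were 4.39 to 4.64 on control and 4.34 to 4.54 on Six2 arrays for leukocyte markers, 3.20 to 3.34 and 3.15 to 3.24 for endothelial markers, and 4.72 to 4.79 and 4.65 to 4.85 for fibroblast markers. Fewer cells that express a gene and less RNA of it per cell cannot be told apart in such samples.

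Replication-dependent histone genes lie in clusters, carry no introns and are transcribed during S phase with the coactivator NPAT. Their mRNAs lack a poly(A) tail and end in a stem-loop, which SLBP binds and which the U7 small nuclear RNA particle uses for cleavage. Cells also make replication-independent histone variants from polyadenylated mRNAs. The sources used here do not give whether labelling primed from poly(A) tails.

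The promoters are shown for the 3 Hist2 genes that were higher in Six2 arrays and for Hist2h2ab, a Hist2 gene that did not pass. The sequences are those of RefSeq, build GRCm38.p6, and cover the 150 bases before each gene's start, printed 5′ to 3′ on the gene's strand. Hist2h3c1 lay at chr3:96246535-96246684 on the plus strand, Hist2h3c2 at chr3:96239128-96239277 on the minus strand, Hist2h2bb at chr3:96269550-96269699 on the plus strand and Hist2h2ab at chr3:96219735-96219884 on the plus strand. Capitals mark matches to TATAAA, to CCAAT and to the octamer ATTTGCAT, on either strand.
Hist2h3c1: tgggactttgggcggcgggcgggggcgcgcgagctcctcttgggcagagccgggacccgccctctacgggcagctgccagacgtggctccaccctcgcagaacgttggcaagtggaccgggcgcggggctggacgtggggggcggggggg
Hist2h3c2: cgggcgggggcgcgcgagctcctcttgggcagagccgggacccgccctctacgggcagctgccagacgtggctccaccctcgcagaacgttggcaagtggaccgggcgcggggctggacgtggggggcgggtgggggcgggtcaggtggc
Hist2h2bb: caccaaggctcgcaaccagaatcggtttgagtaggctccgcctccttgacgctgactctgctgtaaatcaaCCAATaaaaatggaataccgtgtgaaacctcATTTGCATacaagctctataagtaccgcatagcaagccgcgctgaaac
Hist2h2ab: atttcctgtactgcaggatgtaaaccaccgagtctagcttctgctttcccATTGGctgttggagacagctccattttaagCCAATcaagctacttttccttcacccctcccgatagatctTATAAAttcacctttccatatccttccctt
The H3 promoters shared a run of 131 bases, while no other pair of these promoters shared a run of over 6. Neither H3 promoter held any of the 3 motifs in this window. The Hist2h2bb promoter held 1 CCAAT and 1 octamer, and that of Hist2h2ab held 1 TATAAA and 2 CCAAT.

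Promoters were matched for 32 of the 40 histone genes. Of these 32, 16 held TATAAA, against 7.57% of the 32851 RefSeq promoters of the same length. CCAAT was found in 26 of the 32, against 24.5% of all promoters. The octamer, the sequence bound by POU-domain factors such as Pou2f1, was found in 9 of the 32, against 0.998% of all. Matches to the octamer and to CCAAT on the opposite strand can overlap at their ends. A match is a description of sequence, not of a bound factor.

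In the fit over all genes, 3 of the 40 histone genes were higher and 1 was lower in Six2 arrays, and 36 did not pass (limma, adjusted p under 0.05). In the whole table, 6.70% of genes were higher and 8.01% were lower. The share of histone genes that were higher was near this background. The 3 higher genes, Hist2h3c1, Hist2h3c2 and Hist2h2bb, all belonged to Hist2, and the lower gene, Hist1h2ae, to Hist1. The median difference was 0.03 over the histone genes and -0.05 over all genes, as Six2 minus control on the log2 scale. Arrays of the groups did not overlap for 6 histone genes with every Six2 array higher and for 2 with every Six2 array lower. Over all genes these shares were 15.7% and 20.1%. The plot of differences by cluster shows the wide scatter of the dim genes. Of the 40 genes, 24 had a mean above 6, and their differences ran from -0.47 to 1.08, while 16 were dimmer and ran from -1.29 to 0.62.

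**Figure D1:**
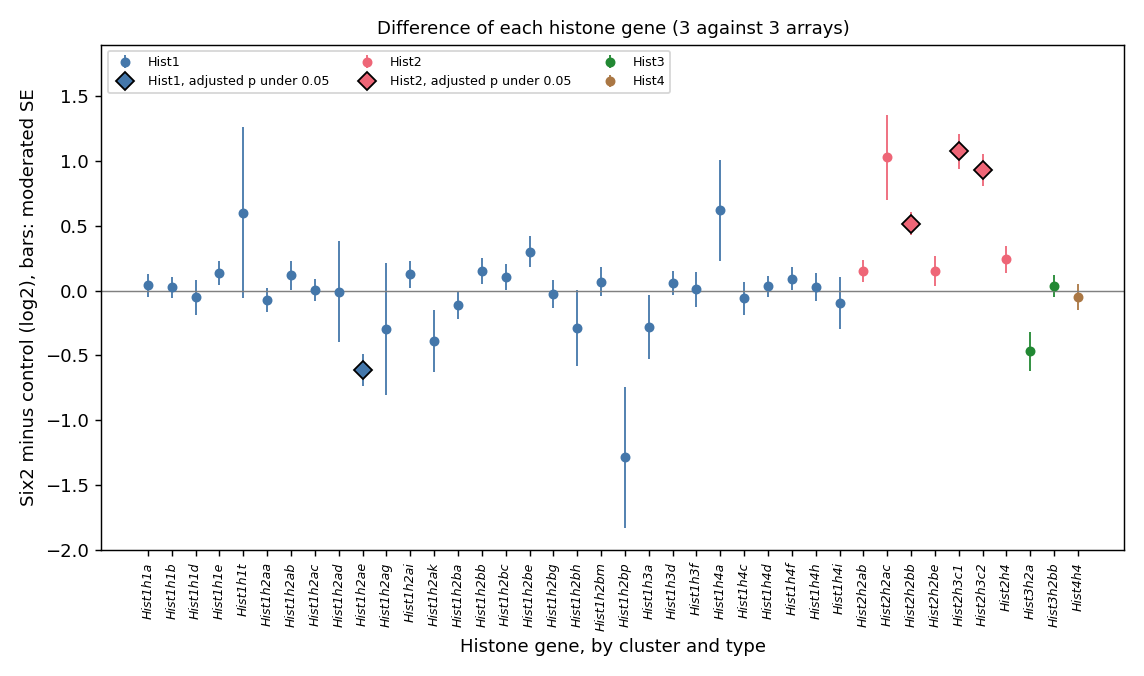
Difference of each of the 40 histone genes, Six2 minus control in log2 units, grouped by cluster and type. Points are the mean difference of 3 against 3 arrays, bars the moderated SE, and diamonds mark adjusted p under 0.05. All 7 Hist2 genes lie above 0, from 0.15 to 1.08, and the Hist1 genes lie on both sides of 0.

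Within Hist2, the H3 genes had the 2 lowest adjusted p-values of the 40. Hist2h3c1, which encodes the core histone H3, was 6.29, 5.96 and 6.41 on the control arrays and 7.37, 7.35 and 7.18 on the Six2 arrays. Every Six2 array was above every control array. Its mean went from 6.22 ± 0.23 to 7.30 ± 0.10 (SD, n = 3 each), a difference of 1.08 (SE 0.14) or 2.11-fold (limma adjusted p = 0.00374). This is the value of a pair of identical rows among its 3, and its brightest row gave 0.58 (limma adjusted p = 0.0226 when that row stood for the gene). Hist2h3c2, the neighbouring copy that also encodes H3, was 5.72, 5.71 and 5.87 on control and 6.52, 6.65 and 6.92 on Six2 arrays. Again the groups did not overlap. The difference was 0.93 (SE 0.12) or 1.91-fold (limma adjusted p = 0.00460), from 5.77 ± 0.088 to 6.70 ± 0.20 (SD, n = 3 each). Because the copies are near-identical, it is uncertain which of them gave these signals, and the promoters share the long run printed above.

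Hist2h2bb, which encodes H2B, was 9.95, 9.96 and 9.82 on control and 10.43, 10.44 and 10.40 on Six2 arrays. The Six2 values lay close together and all above the control values. The mean went from 9.91 ± 0.081 to 10.43 ± 0.022 (SD, n = 3 each), a difference of 0.52 (SE 0.087) or 1.43-fold (limma adjusted p = 0.0101). On every array this value was that of 1 of the gene's 3 rows. That row did not pass in the fit over all rows (limma adjusted p = 0.0742). Taken from the gene's brightest row alone, the difference was 0.36 and did not pass (limma adjusted p = 0.0841).

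The other Hist2 genes did not pass. Hist2h2ac, an H2A gene and the largest rise among genes that did not pass, was 7.06, 7.46 and 8.31 on control and 8.72, 8.24 and 8.95 on Six2 arrays. Control replicate 3 was above Six2 replicate 2, and the difference of 1.03 (SE 0.33) had a limma adjusted p of 0.0812. Without control replicate 3 the difference was 1.38 and passed (limma adjusted p = 0.0232). Hist2h4, an H4 gene, was 11.08, 10.94 and 10.88 on control and 11.24, 11.30 and 11.08 on Six2 arrays. Control replicate 1 and Six2 replicate 3 differed by less than the rounding shown, with the Six2 array higher, and the difference of 0.24 (SE 0.10) had a limma adjusted p of 0.167. Hist2h2ab, an H2A gene, was 12.59, 12.61 and 12.56 on control and 12.77, 12.80 and 12.65 on Six2 arrays. The groups did not overlap, and the difference of 0.15 (SE 0.087) had a limma adjusted p of 0.297. Hist2h2be, an H2B gene whose human counterpart is known to also give polyadenylated mRNA, was 4.73, 4.92 and 5.01 on control arrays. On Six2 arrays Hist2h2be was 5.17, 4.92 and 5.02, with overlap. Its difference was 0.15 (SE 0.11, limma adjusted p = 0.421). All 7 Hist2 differences were above 0, with a median of 0.52. Every Six2 array was higher in 5 of the 7 genes, against 15.7% of all genes. Of the 7, 6 had a mean above 6, and 2487 of all 8987 genes above that mean had every Six2 array higher. Of the 20 neighbouring genes on chromosome 3 described below, 17 were also above 0. With the median of chromosome 3 taken off, as described with the neighbouring genes, Hist2h2ab and Hist2h4 lay below 0.

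**Figure D2:**
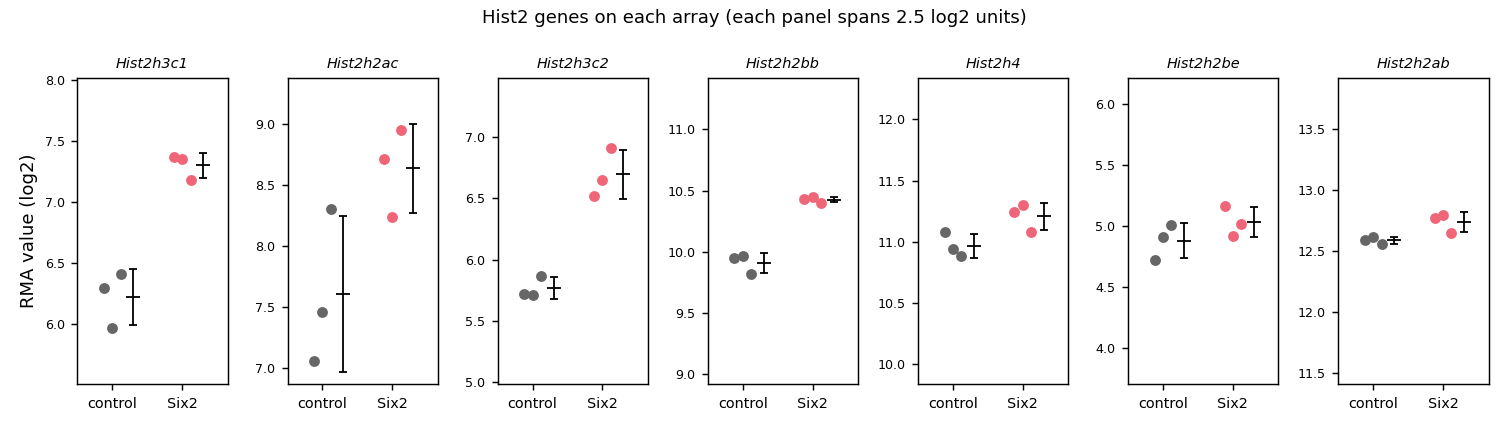
RMA values in log2 units of the 7 Hist2 genes on each of the 3 control (grey) and 3 Six2 (pink) arrays, with crosses and bars for the mean ± SD. Each panel spans the same number of log2 units, so the distances between groups can be compared. Groups overlap for Hist2h2ac and Hist2h2be.

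Hist2 lies on chromosome 3, where many genes were higher in Six2 arrays. Of 419 genes of that chromosome with a mean above 6, 177 (42.2%) were higher and 13 lower, against 3 of the 6 Hist2 genes in that set, and the 413 that are not histone genes had a median difference of 0.37. The 20 nearest measured genes around Hist2, again those above 6, had a median of 0.21, and 17 of 20 were above 0. The higher ones were Anp32e, a chaperone that removes the variant H2A.Z, at 0.64, and Rnf115, a ubiquitin ligase, at 0.47. The lower one was Txnip, a thioredoxin-binding protein, at -1.46. With the median of the chromosome taken off, Hist2h3c1 was 0.71 (limma adjusted p = 0.0206) and Hist2h3c2 was 0.56 (0.0328), both still past the threshold, while Hist2h2bb was 0.15 and did not pass (0.326). Of the genes that had not passed, Hist2h2ab was then -0.22 (limma adjusted p = 0.168), Hist2h4 -0.13 (0.488) and Hist2h2ac 0.66 (0.252). Hist2h2be, with a mean under 6, was outside this correction. With the median of the neighbours taken off, an alternative chosen after seeing the data, Hist2h3c1, Hist2h3c2 and Hist2h2bb were 0.87 (limma adjusted p = 0.00784), 0.72 (0.0107) and 0.31 (0.0575). Hist2h2ab and Hist2h2be were each -0.06, and Hist2h4 was 0.03. The part of the chromosome-wide shift in the Hist2 differences was not tested further.

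The neighbours of the other clusters were measured in the same way. The 20 neighbours of Hist1 on chromosome 13 had a median difference of -0.02, with 3 higher and 0 lower. Those of Hist3 on chromosome 11 had a median of -0.18, with 4 of 20 above 0. Those of Hist4 on chromosome 6 had a median of -0.13, with 1 higher and 6 lower.

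**Figure D3:**
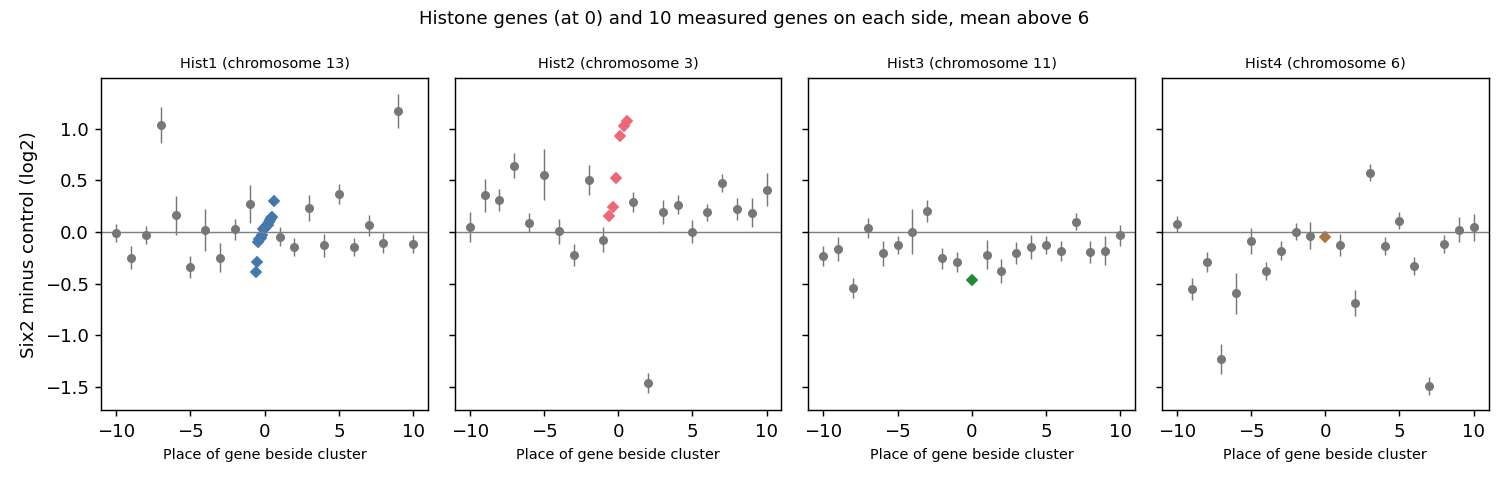
Differences, Six2 minus control in log2 units, of histone genes with a mean above 6 (diamonds at place 0, spread sideways) and of the 10 measured genes with a mean above 6 on each side (grey points with moderated SE), by order along the chromosome. For Hist2, 17 of 20 neighbours lie above 0, and the histone genes run from 0.15 to 1.08.

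In Hist1, 0 of 30 genes were higher and 1 was lower (limma adjusted p under 0.05), against 6.70% and 8.01% of all genes. In 1 gene every Six2 array was higher and in 1 every one was lower, against 15.7% and 20.1% of all genes. The median difference was 0.02, with 17 genes above and 13 below 0. Of the 16 Hist1 genes with a mean above 6, none passed in either direction. Among all genes with a mean above 6, 12.2% were higher and 12.4% lower. The differences of the 16 ran from -0.39 to 0.30 with a median of 0.03. An unadjusted p under 0.05 was reached by 3 of the 30 genes, 1 of them higher, and by 1 of the 16 brighter ones. By protein, the Hist1 medians were 0.04 for 5 H1 genes, -0.04 for 8 H2A genes, 0.02 for 8 H2B genes, 0.01 for 3 H3 genes and 0.03 for 6 H4 genes. The gene with every Six2 array higher was Hist1h2be, an H2B gene named here after its values were seen, at 5.90, 5.98 and 6.11 on control and 6.47, 6.12 and 6.30 on Six2 arrays. Control replicate 3 and Six2 replicate 2 lay next to each other, and the difference of 0.30 (SE 0.12) had a limma adjusted p of 0.143. The difference between Hist2 and Hist1 was not tested.

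Among the linker histones, Hist1h1b was 11.01, 11.03 and 10.99 on control and 11.00, 11.04 and 11.06 on Six2 arrays. The groups overlapped, and the difference of 0.03 had a 95% interval of -0.16 to 0.22 (limma adjusted p = 0.869). Hist1h1e was 10.49, 10.43 and 10.46 on control and 10.65, 10.66 and 10.47 on Six2 arrays. Its Six2 replicate 3 lay within the control range, and the difference of 0.13 had an interval of -0.08 to 0.35 (limma adjusted p = 0.389). None of the 5 H1 genes passed or had an unadjusted p under 0.05, and their median was 0.04.

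Hist1h2ak, an H2A gene, was 11.49, 11.37 and 11.29 on control and 11.23, 11.36 and 10.41 on Six2 arrays. Six2 replicate 3 stood far below the rest, and the difference was -0.39 (SE 0.24, limma adjusted p = 0.333). Without Six2 replicate 3 it was -0.09 (limma adjusted p = 0.609). Its 3 rows gave -0.39, 0.02 and -0.37, so they disagreed in sign. The row at 0.02 was the brightest.

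The H2B genes Hist1h2bm and Hist1h2bb were the brightest of their type. Hist1h2bm was 11.33, 11.32 and 11.11 on control and 11.40, 11.40 and 11.16 on Six2 arrays, with overlap and a difference of 0.07 (interval -0.20 to 0.33, limma adjusted p = 0.743). Hist1h2bb was 10.57, 10.48 and 10.59 on control and 10.78, 10.76 and 10.55 on Six2 arrays. Its Six2 replicate 3 fell among the controls, and the difference was 0.15 (interval -0.09 to 0.38, limma adjusted p = 0.368). Hist1h2bp, the largest fall among genes that did not pass, was 5.15, 3.76 and 3.15 on control and 3.53, 2.20 and 2.47 on Six2 arrays. The groups overlapped and the arrays of each spread widely, and the difference of -1.29 (SE 0.54) had a limma adjusted p of 0.164. Without control replicate 1, the highest array, it was -0.72 (limma adjusted p = 0.347).

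For the other core histones, Hist1h3d was 12.29, 12.41 and 12.20 on control and 12.34, 12.38 and 12.36 on Six2 arrays. The groups overlapped, and the difference of 0.06 had an interval of -0.16 to 0.28 (limma adjusted p = 0.717). Hist1h4d was 12.60, 12.60 and 12.64 on control and 12.67, 12.66 and 12.63 on Six2 arrays. The overlap was again evident, with a difference of 0.03 and an interval of -0.16 to 0.22 (limma adjusted p = 0.820). None of the 8 H4 genes passed or had an unadjusted p under 0.05, and their median was 0.03.

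The lower Hist1 gene, Hist1h2ae, an H2A gene, was 4.23, 4.10 and 4.10 on control and 3.36, 3.48 and 3.75 on Six2 arrays. All Six2 arrays were below all control arrays. The mean went from 4.14 ± 0.077 to 3.53 ± 0.20 (SD, n = 3 each), a difference of -0.61 (SE 0.12), 1.53-fold lower (limma adjusted p = 0.0183). Its 5 rows ran from -0.78 to 0.15. The brightest, with a mean of 12.14, differed by -0.04. None of the 5 rows passed in the fit over all rows, where the lowest limma adjusted p was 0.0967. The gene's value on each array was the median of these rows, and came from different rows on different arrays. With dim rows left out the gene's difference was 0.054, the opposite sign, and did not pass (limma adjusted p = 0.844). The call was also lost without any one of control replicates 1 and 2 and Six2 replicates 1 and 2 (limma adjusted p = 0.0532 to 0.0670).

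Of 5 listed histone genes whose human counterparts are known to also give polyadenylated mRNA, 3 were measured, Hist2h2be, Hist1h2bc and Hist1h2ac. None passed, and their differences were 0.15, 0.10 and 0.00. The testis-specific genes Hist1h1t, Hist1h2aa and Hist1h2ba differed by 0.60, -0.07 and -0.11, and none passed. Hist1h1t and Hist1h2ac were dim, with means of 3.02 and 2.32, and the interval of Hist1h1t was -0.96 to 2.16. Of the remaining clusters, Hist3h2a, an H2A gene named here after its values were seen, as the other Hist3 and Hist4 genes are, was 8.62, 8.81 and 9.19 on control and 8.46, 8.36 and 8.38 on Six2 arrays. Every Six2 array was lower, and the difference of -0.47 (SE 0.15) had a limma adjusted p of 0.0828. Its 4 rows, of which 2 held identical values, ran from -0.65 to 1.40. The identical rows were the brightest, with a mean of 11.79, and differed by -0.29 (limma over all rows, adjusted p = 0.233). The gene's value lay midway between these rows and the row at -0.65, which had a mean of 5.48. Hist3h2bb was 4.70 on control and 4.73 on Six2 arrays, a difference of 0.03 (limma adjusted p = 0.839). Hist4h4 was 9.20 and 9.15, a difference of -0.05 (limma adjusted p = 0.804).

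On single rows, 3 of the 67 histone rows with 1 symbol were higher and 0 were lower (limma over all rows, adjusted p under 0.05), against 1.20% and 1.60% of all rows. The 3 were the pair of Hist2h3c1 rows with identical values, 10494401 and 10494404, at 1.08 each, and the Hist2h3c2 row 10500328 at 0.93. The 0 rows lower stand beside 4 rows with an unadjusted p under 0.05 and a difference below 0. In 12 rows every Six2 array was higher and in 6 every one was lower. Over all rows, 14.6% had every Six2 array higher and 15.2% every one lower. Of the 11 rows of Hist2 genes, all differed by more than 0, and 8 did not overlap, which were 7 of 10 distinct value sets. The third Hist2h3c1 row, 10494399, gave 0.58. With any 1 of the 6 arrays left out, 0 histone rows passed in either direction. In those fits few rows passed anywhere in the table, 0 of all 241576 rows without any one control array and 535 to 1206 without one Six2 array, against 6756 with all arrays, so the loss says little about the histone rows. Of the 15 genes with more than 1 row, 9 had rows of opposite sign.

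**Figure D4:**
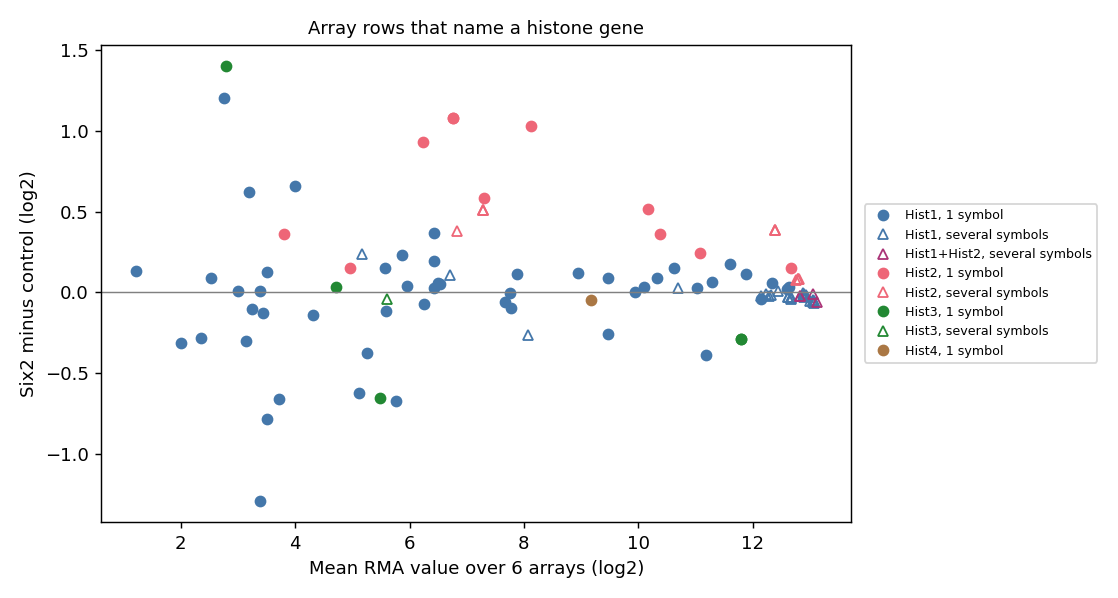
Difference, Six2 minus control in log2 units, of the 114 rows that name a histone against the mean RMA value over 6 arrays. Filled circles are rows with 1 symbol and open triangles rows with several. Rows with several symbols crowd near 0 above a mean of 12, apart from Hist2 rows near 0.39.

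Rows with several symbols carried some of the brightest values of the array. Of these 47 rows, 38 had a mean above 12, where the 99th percentile of all rows was 11.7. Of the 47, 0 passed in either direction (limma adjusted p under 0.05), where 1.20% of all rows were higher and 1.60% lower. An unadjusted p under 0.05 was reached by 6, all naming several Hist2 genes and holding 2 distinct sets of values. The 47 rows held 38 distinct sets of values. The 4 rows that named Hist1 and Hist2 genes together, all of H3, differed by -0.06 to -0.01. Of these, 3 named Hist2h3c1 and Hist2h3c2 with others and differed by -0.02 to -0.01, while the row of Hist2h3c2 alone rose. When rows with several symbols also counted for their genes, Hist2h3c2 was -0.02 (limma adjusted p = 0.920) and Hist2h3c1 was 0.39 (0.0316). The 12 rows naming several Hist2 genes, of 6 distinct value sets, differed by 0.08 to 0.51, all above 0. The groups did not overlap in 6 of the 12, which were 2 of the 6 distinct sets. Rows naming Hist2h2aa1, Hist2h2aa2 and Hist2h3c1 gave 0.39 and 0.51, and rows that also named Hist2h2ac gave 0.08 to 0.09 at means near 12.8. The 30 rows naming several Hist1 genes had a median of -0.02 and ran from -0.26 to 0.24. Six2 replicate 3 was the lowest array in 24 of the 30, and in 4 of the 4 rows naming both clusters, and its part in these differences was not tested. The single row naming the Hist3 H2B genes differed by -0.04.

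Genes that serve histone supply were compared in 4 lists, and the shares called over all genes with a mean above 6, which nearly all of them had, were 12.2% higher and 12.4% lower. Among the 10 histone variants measured that lie outside the Hist1 to Hist4 names, 0 were higher and 2 lower, with a median of -0.02. H2afx, the variant phosphorylated at DNA breaks, was 9.44, 9.42 and 9.39 on control and 9.05, 9.00 and 8.79 on Six2 arrays, a difference of -0.48 (limma adjusted p = 0.0217). H2afv, a copy of the H2A.Z family, was 10.03 on control and 9.57 on Six2 arrays, a difference of -0.46 (limma adjusted p = 0.0229), which was -0.35 and did not pass with chromosome medians taken off (0.0689). In both, all Six2 arrays lay below all control arrays. H2afz, on chromosome 3, was 0.27 higher and did not pass (limma adjusted p = 0.0743).

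Of 20 genes for histone transcription and mRNA processing, 2 were higher, 1 was lower and 17 did not pass, with a median of 0.11. Npat, the coactivator of histone promoters, was 8.36, 8.45 and 8.44 on control and 8.88, 8.82 and 9.08 on Six2 arrays. The groups did not overlap, and it rose by 0.51 (SE 0.10, limma adjusted p = 0.0182), and was 0.39 with chromosome medians taken off (0.0579). Pou2f1, which binds the octamer, rose by 0.42 (limma adjusted p = 0.0317), but lies on chromosome 1, whose genes had a median of 0.44. With chromosome medians taken off it was -0.02. Mif4gd, also called SLIP1, which joins SLBP in histone mRNA translation, was 8.19, 8.32 and 8.06 on control and 7.22, 7.30 and 7.41 on Six2 arrays. It fell by 0.88 (SE 0.11, limma adjusted p = 0.00332). Slbp was 0.29 higher and did not pass (limma adjusted p = 0.240).

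Of 22 chaperones and modifiers of new histones, 1 was higher and 1 lower. Anp32e, on chromosome 3, was 0.64 higher (limma adjusted p = 0.0147), and 0.27 with chromosome medians taken off (0.198). Daxx, the chaperone of a replication-independent H3 variant, fell by 0.54 (limma adjusted p = 0.0479), and was -0.28 with the medians taken off (0.271). The 20 others did not pass, and the list's median was 0.07.

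Of 43 genes of S phase and DNA replication, 6 were higher and 3 lower, with a median of 0.11. Prim1, the small primase subunit, was 8.26, 8.48 and 8.52 on control and 9.06, 9.28 and 9.25 on Six2 arrays. All Six2 arrays were higher, a difference of 0.78 (SE 0.11, limma adjusted p = 0.00636). Prim2, the large subunit, on chromosome 1, rose by 0.70 (limma adjusted p = 0.00959), and was 0.27 with chromosome medians taken off (0.199). Ccne2 and Ccna2, cyclins of S phase entry and passage, rose by 0.54 and 0.36 (limma adjusted p = 0.0224 and 0.0285). Ccna2 lies on chromosome 3 and was -0.01 with chromosome medians taken off. Cdc45, Pola2 and Gins4, which serve replication forks, fell by 0.55, 0.51 and 0.39 (limma adjusted p = 0.0232, 0.0296 and 0.0385). With the medians taken off, Cdc45 was -0.37 (0.0988) and Pola2 -0.33 (0.128), and Gins4 still passed at -0.57 (0.0140). Of the 4 lists together, 9 genes were higher and 7 lower, against 3 and 3 with chromosome medians taken off. Leaving out any 1 of control replicates 1, 2 and 3 and Six2 replicates 1 and 2 left 2 to 5 higher and 1 to 3 lower. Prim1 and Mif4gd passed under all 16 alternatives run, and each of the other called genes of these lists lost its call in at least 1. The part of the chromosome shifts in these calls was not tested further.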

How the data were processed

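Total RNA was measured on 6 arrays, 3 per group, grouped by their labels. Each array received biotinylated cRNA made from 6 ug of RNA, per the labels' protocols. The deposited log2 values came from RMA in Affymetrix Power Tools, per the submitters' processing notes. RMA corrects background, quantile-normalizes arrays and summarises probes, so that changes in total RNA per cell are not visible. The sources used here do not give versions, a probe set filter or a build, and the precision is limited by the number of arrays.

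The table held 241576 rows. Gene symbols came from the platform annotation, 5107 rows named several symbols and 23108 none. Each gene took the median of its rows with that symbol alone, and no filter on low values was applied, so every one of the 40 members was tested. RefSeq (GRCm38.p6) gave chromosomes, gene order and promoters. Groups were compared with limma 3.58.1 (lmFit, eBayes, two-sided, adjusted p under 0.05 by Benjamini-Hochberg across the whole table of genes or of rows) in R 4.3.3 with the package data.table, version 1.17.8,, and promoters and plots were made with Python 3.11.15, pandas 2.3.3 and matplotlib 3.10.9. Intervals are 95% moderated intervals. The fit was tested on simulated data.

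The members and lists were chosen with earlier results of these data known. Named members are those past the threshold, the 2 brightest of each type and the largest rise and fall among the rest, and lists name up to 4 genes per direction. Alternatives were the mean or brightest row, rows with several symbols counted, dim rows (at or below the 30th percentile) left out, renewed quantile normalization, centring, a variance trend with robust variance, a replicate block, chromosome medians subtracted (from genes with a mean above 6) and the removal of each array in turn. Counting identical rows once and subtracting the neighbours' median were chosen after seeing the data.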

Additional observations from a re-analysis of the deposited data

How the results depend on the processing

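Of the 3 Hist2 genes that were higher, Hist2h3c1 passed under all 17 alternatives run, at 0.39 to 1.17. Hist2h3c2 passed except when rows with several symbols also counted (-0.0201), where it turned in sign, and Hist2h2bb did not pass with the brightest row (0.36), chromosome medians subtracted (0.15) or the neighbours' median subtracted (0.31). With a variance trend and robust variance, 6 histone genes were higher, all of Hist2 (3 in the main result), and 2 were lower (1 in the main result). Over all genes, 1991 were higher and 2237 lower under that setting, against 1400 and 1673 in the main result. The count of lower histone genes was 0 with the mean of rows, the brightest row, several-symbol rows counted or dim rows left out, and 0 to 1 with 1 array left out. Hist1h2ae turned to 0.054 with dim rows left out. With 1 array left out, 3 to 4 histone genes were higher, and the histone rows with an adjusted p under 0.05 were 0 higher in each case, against 3 with all arrays, while over all rows 0 to 1206 passed, against 6756. The histone rows called higher were 5 with dim rows left out and 5 with the variance trend, under which 2 were lower. Over all rows, 8.26% passed with dim rows left out and 8.33% with the variance trend, against 2.80% in the main result.

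Of the genes of histone supply, 9 were higher and 7 lower. With the mean of rows these were 25 and 11, with the variance trend 25 and 12, with chromosome medians subtracted 3 and 3, and with the brightest row 4 were lower. With 1 array left out, 2 to 8 were higher and 1 to 6 lower. With chromosome medians subtracted, Ccna2 (-0.011), Mcm6 (-0.033) and Pou2f1 (-0.019) turned in sign. The cause of these changes was not tested beyond what each alternative alters.

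The labels do not say that replicate numbers pair the arrays. Deviations of same-numbered arrays correlated at -0.008, -0.009 and -0.055 across genes, and those of differently numbered arrays at -0.0321 to 0.0395. Such values cannot show whether the arrays were paired. With the replicate block, the 3 Hist2 genes still passed (limma adjusted p = 0.0231, 0.0163 and 0.0415), Hist1h2ae was not (0.0574), Hist1h2bp was (0.0336), 0 histone rows and 0 of all rows passed, and 4 genes of histone supply were higher and 1 lower. Over all genes, 3073 passed, against 1820 with the replicate block, 4862 with the mean of rows and 1563 to 2443 with 1 array left out. With 3 arrays per group, small differences of dim rows could not be resolved.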
